A study of Mus musculus with 24 samples.

Results

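The terminal ileum of 4 conventional mice given long-chain β2→1-fructan was compared with that of 4 conventional mice given water, together 8 of the 24 mice of the study and 2 of its 6 groups. All animals of both groups were male C57BL/6OlaHsd mice of 8 weeks, free of specified pathogens, that ate the defined diet D12450B with 10% fat before and during the experiment. Long-chain β2→1-fructan (inulin) was dissolved in sterile water and given by oral gavage, 10 mg once a day for 5 days, and the control mice received water alone by the same route. The other 4 groups were conventional mice given short-chain β2→1-fructan and germ-free mice of the same strain given water, short-chain or long-chain β2→1-fructan. They are used here only beside this comparison. Conventional mice came from a commercial supplier and germ-free mice from the breeding colony of a university. The long-chain β2→1-fructan of the germ-free mice had been irradiated and was partly degraded, that of the conventional mice had not. RNA of a snap-frozen piece of ileum of each mouse was hybridised to 1 Affymetrix Mouse Gene 1.1 ST array. All 18820 genes with a probe set that carried a single gene symbol were described. Values are log2 expression values from robust multiarray averaging (RMA), so that a difference of 1 is a 2-fold change.

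β2→1-Fructans are plant storage chains of fructose that mammalian digestive enzymes do not cleave. They pass the small intestine largely intact and are fermented by bacteria, mainly further down the gut. The terminal ileum absorbs bile acids, remaining nutrients and vitamin B12, and it is densely populated by bacteria and immune cells. Its enterocytes carry transporters and enzymes for sugars, peptides and lipids and make cholesterol. They also sense cytokines such as interferon-γ and IL-22, which induce antigen presentation and antimicrobial defence. Neurons and glia of the enteric plexuses, smooth muscle and stroma lie beneath the epithelium. Because whole tissue was read, fewer cells of a type and less RNA per cell cannot be told apart.

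Markers of the cell types of the ileal wall were present in both groups. The summed level of 5 enterocyte markers was 13.73 to 13.83 on the log2 scale on water and 13.72 to 13.83 after long-chain β2→1-fructan, and each of these markers had a mean level of at least 10.27. Of 16 marker sets, 0 held a called gene, while 0.313% of all tested genes were called. Across genes, which are not independent replicates, pairs of arrays of the same group correlated with r of 0.9926 to 0.9954 and pairs of arrays of different groups with r of 0.9923 to 0.9954. Water mouse 1 stood apart from the other water mice in several gene groups described here. Calls of the genes described here that ended without it are named as such.

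The study's thresholds, an unadjusted limma p under 0.01 together with a fold change over 1.3, defined a call, and only called genes are said here to have risen or fallen. By this rule 59 genes changed (0.313% of all tested), of which 31 rose (0.165%) and 28 fell (0.149%). No gene passed a Benjamini-Hochberg adjusted p of 0.05 in limma, where the smallest adjusted p was 0.43. At an unadjusted p under 0.01, without the fold threshold, there were 194 genes, against 188.2 that chance alone gives. At p under 0.05 there were 1067 genes (5.67%), 364 with a higher level (1.93%) and 703 with a lower one (3.74%). The sizes were small. The median fold change of the 59 called genes was 1.38, and the largest was 3.02. The 4 mice of each group did not overlap for 32 of the 59, while over all genes 4.21% were without overlap, 1.26% in the higher and 2.95% in the lower direction.

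Faint and bright genes did not share the changes evenly. Of all 18820 tested genes, 8175 had a mean log2 level under 5 and 10645 a level of 5 or more. Among the 59 called genes, 37 had a mean log2 level under 5, and of these 23 rose and 14 fell. Among the 22 brighter ones, 8 rose and 14 fell. Of the 4153 genes between mean levels of 7 and 9, 25 were higher and 238 lower at p under 0.05. The median change there was -0.04, against -0.02 over all genes. After cyclic loess normalization, an alternative to the deposited scaling, the median over all genes was 0.002, and 32 genes were called higher and 25 lower. The call depended on single mice as well. Leaving out long-chain mouse 3 raised the number of called genes to 119, and leaving out long-chain mouse 1 raised it to 90. Across all 17 alternative settings, 8 of which left out a mouse, 5 genes were called throughout. Csf2rb2 rose, and Slc2a2, Cndp1, Eepd1 and Lonrf3 fell. Without the setting that removed faint genes, 13 held.

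**Figure D1:**
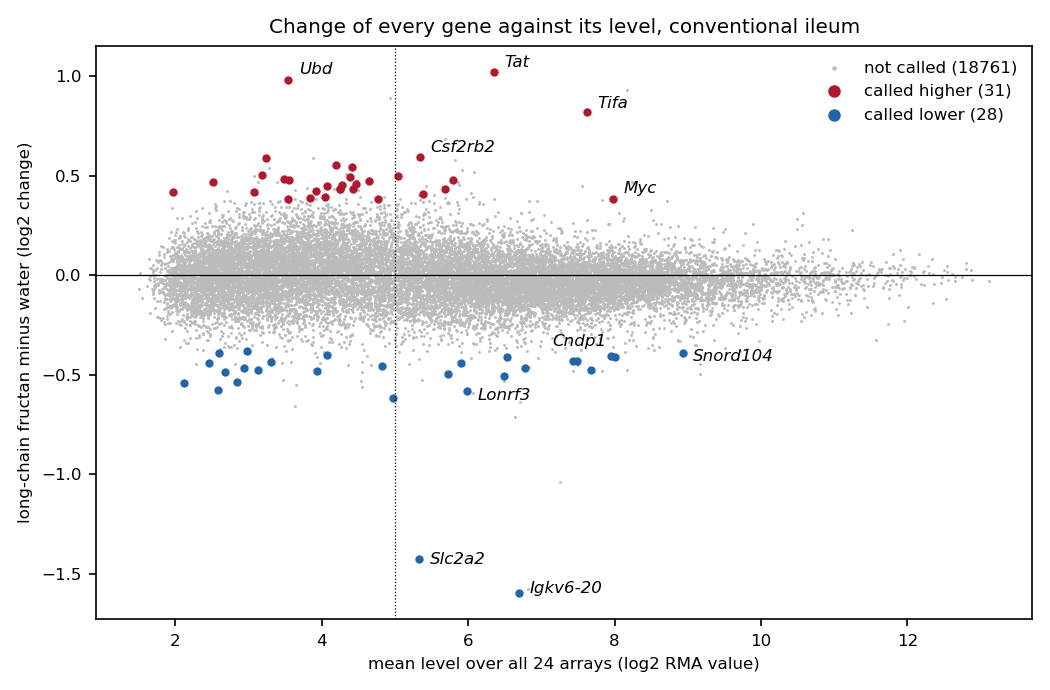
Change of each of the 18820 genes (vertical axis, log2 value after long-chain β2→1-fructan minus water, mean of 4 mice each) against its mean level over all 24 arrays (horizontal axis, log2 RMA value). Genes that rose are red and genes that fell are blue. The dotted line marks a level of 5, under which 37 of the 59 called genes and 8175 of all genes lie.

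Sugar handling held the largest decrease that no single mouse decided. Slc2a2 (chromosome 3 of GRCm38, 28697903 to 28728361) encodes GLUT2, the transporter that carries glucose and fructose across the basolateral membrane of enterocytes. Its level was 6.59, 5.68, 5.74 and 5.59 in the 4 water mice and 4.79, 4.77, 3.81 and 4.51 in the 4 mice given long-chain β2→1-fructan. Every treated mouse lay below every water mouse, although water mouse 1 was well above the other 3. The log2 change was -1.43 ± 0.33 (standard error in limma), a 2.69-fold lower level, with an exact permutation p of 0.0286, the smallest that 4 against 4 mice allow. Without water mouse 1 the change was -1.20, still called. The 250 bases before the start of this gene (RefSeq, GRCm38.p6, plus strand, chr3:28697653-28697902) are shown because the gene led the decreases, with matches to the CCAAT box (letters CCAAT, or ATTGG on the other strand) in capitals.
Slc2a2: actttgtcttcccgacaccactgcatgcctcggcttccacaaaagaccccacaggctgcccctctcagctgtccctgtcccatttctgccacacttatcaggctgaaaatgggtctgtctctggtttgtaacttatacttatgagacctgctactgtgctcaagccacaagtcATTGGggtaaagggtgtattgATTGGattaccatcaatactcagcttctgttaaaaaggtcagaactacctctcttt
The window held 2 such matches, which begin at positions -77 and -56 counted from the start.

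None of the 14 measured genes of sugar transport and fructose metabolism was above its water level on average, while over all genes 44.3% were above 0 and 55.7% below. Of these genes 2 fell, Slc2a2 and Fbp1, and 4 were lower at p under 0.05, against 0.149% and 3.74% of all genes. The median log2 change was -0.21. Fbp1 encodes fructose-1,6-bisphosphatase of gluconeogenesis. It stood at 6.24, 6.03, 5.76 and 5.76 on water and at 5.07, 5.52, 5.59 and 5.62 after treatment (log2 change -0.50 ± 0.16), without overlap. Its call ended without long-chain mouse 1 (-0.37), water mouse 1 (-0.40) or water mouse 2 (-0.47), and in the fit of the 12 conventional arrays. Mlxipl, the carbohydrate-sensing transcription factor ChREBP, was lower without overlap but under the fold threshold (-0.31 ± 0.09), and so was the sucrase-isomaltase gene Sis at the brush border (-0.24 ± 0.06). The triokinase gene Tkfc, whose product acts on fructose-derived glyceraldehyde, differed by -0.24 ± 0.09, with a narrow overlap. Further genes of the group were not called, among them the ketohexokinase gene Khk (-0.24 ± 0.13) and the glucose-6-phosphatase gene G6pc (-0.71 ± 0.36, or -0.43 without water mouse 1). The apical transporter genes of glucose and of fructose, Slc5a1 and Slc2a5, differed by -0.07 ± 0.07 and -0.12 ± 0.18, within the spread between mice. As a mean over the 14 genes, each centred on its water mean, the 4 water mice lay at 0.21, -0.10, 0.02 and -0.14 and the 4 treated mice at -0.29, -0.27, -0.40 and -0.33. These ranges did not overlap. All 4 brush border disaccharidase genes were also below 0, with a median of -0.15, and none was called. Treh, the trehalase gene, stood at -0.29 ± 0.16 among them.

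Further genes that fell are described singly and share no list. Cndp1, a dipeptidase gene that acts on carnosine, had the smallest p of all genes. Its level was 7.70, 7.64, 7.57 and 7.55 on water and 7.22, 7.21, 7.12 and 7.19 after long-chain β2→1-fructan (log2 change -0.43 ± 0.09, adjusted p = 0.43 in limma). The gap between the groups was wider than the range within either. Grhpr (chromosome 4, 44981394 to 44990734), which encodes glyoxylate and hydroxypyruvate reductase, was at 7.39, 7.37, 7.47 and 7.50 on water and at 7.09, 6.80, 6.97 and 7.15 after treatment (-0.43 ± 0.09). It did not overlap, and its call ended only without long-chain mouse 2 (-0.36). Lonrf3 (chromosome X, 36328358 to 36366857), a RING finger gene, was at 6.09, 5.91, 6.08 and 6.05 on water against 5.48, 5.10, 5.40 and 5.81 (-0.58 ± 0.13). Eepd1, which encodes a protein with an endonuclease-like domain, was at 6.29, 6.01, 6.20 and 6.15 against 5.94, 5.55, 5.76 and 5.63 (-0.44 ± 0.12). In both genes the highest treated mouse stayed under the lowest water mouse. Others were without overlap but depended on single mice. Slc47a1, an organic cation exporter, fell (-0.51 ± 0.15), a call that ended without long-chain mouse 1 (-0.42) or water mouse 3 (-0.46). Acot4, a peroxisomal acyl-CoA thioesterase gene, fell (-0.48 ± 0.15), a call that ended without long-chain mouse 3 (-0.43) or water mouse 1 (-0.42). Ms4a10, which encodes a membrane protein of the MS4A family, fell (-0.41 ± 0.11), a call that ended without long-chain mouse 3 (-0.37) and after cyclic loess (-0.37).

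In several lists of absorption and metabolism most genes lay below 0 without a call. Acads, the short-chain acyl-CoA dehydrogenase gene, was at 8.35, 8.41, 8.36 and 8.36 on water and at 8.03, 8.23, 8.11 and 7.95 after treatment. The groups did not overlap, but the fold change stayed under 1.3 (log2 change -0.29 ± 0.06). Mme, the gene of the brush border peptidase neprilysin, differed by -0.50 ± 0.18 and the cytosolic dipeptidase gene Cndp2 by -0.17 ± 0.06, both without overlap. Of 14 brush border and cytosolic peptidases 1 fell, Cndp1, and 10 were below 0. In lipid absorption and chylomicron assembly 15 of 17 genes were below 0 with a median of -0.11, and none was called. Over all genes 55.7% were below 0 and 2.95% did not overlap in the lower direction, while here 5 did not overlap. Among these were the apolipoprotein gene Apoa1 (-0.12 ± 0.05) and the fatty acid transporter gene Slc27a4 (-0.25 ± 0.11). Of 18 genes of fatty acid oxidation and other PPAR-α targets 12 were below 0 and none was called. Ppara itself, the gene of the lipid-sensing nuclear receptor, was at 7.45, 7.39, 7.45 and 7.49 on water against 7.11, 7.29, 7.05 and 6.86 (-0.37 ± 0.13), without overlap and just under the fold threshold. Of 14 retinoid genes 10 were below 0 with a median of -0.08, or -0.05 after cyclic loess. Lrat fell (-0.41 ± 0.15). Its product esterifies retinol for storage and export. Its groups overlapped, since long-chain mouse 3 at 7.89 lay among water mice at 7.58 to 7.90, and its call ended without long-chain mouse 1, 2 or 4 or water mouse 1, 3 or 4 (-0.26 to -0.43). Lrat was called in 4 of the 17 alternative settings, and its call also ended after cyclic loess (-0.37) and with array weights (-0.37). The β-carotene oxygenase gene Bco1 differed by -0.42 ± 0.17 and the retinol dehydrogenase gene Rdh1 by -0.53 ± 0.20 (-0.34 without long-chain mouse 2 and -0.35 without water mouse 2), neither called. All 14 tight junction genes were below 0 (median -0.12), and none was called. Over all genes 3.74% were lower at p under 0.05, and 4 of these 14 were. These were the scaffold gene Tjp3 (-0.17 ± 0.06), the claudin genes Cldn4 (-0.32 ± 0.14) and Cldn8 (-0.33 ± 0.14) and the occludin gene Ocln (-0.17 ± 0.08). Their median was -0.05 without long-chain mouse 2 and -0.06 without water mouse 1.

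**Figure D2:**
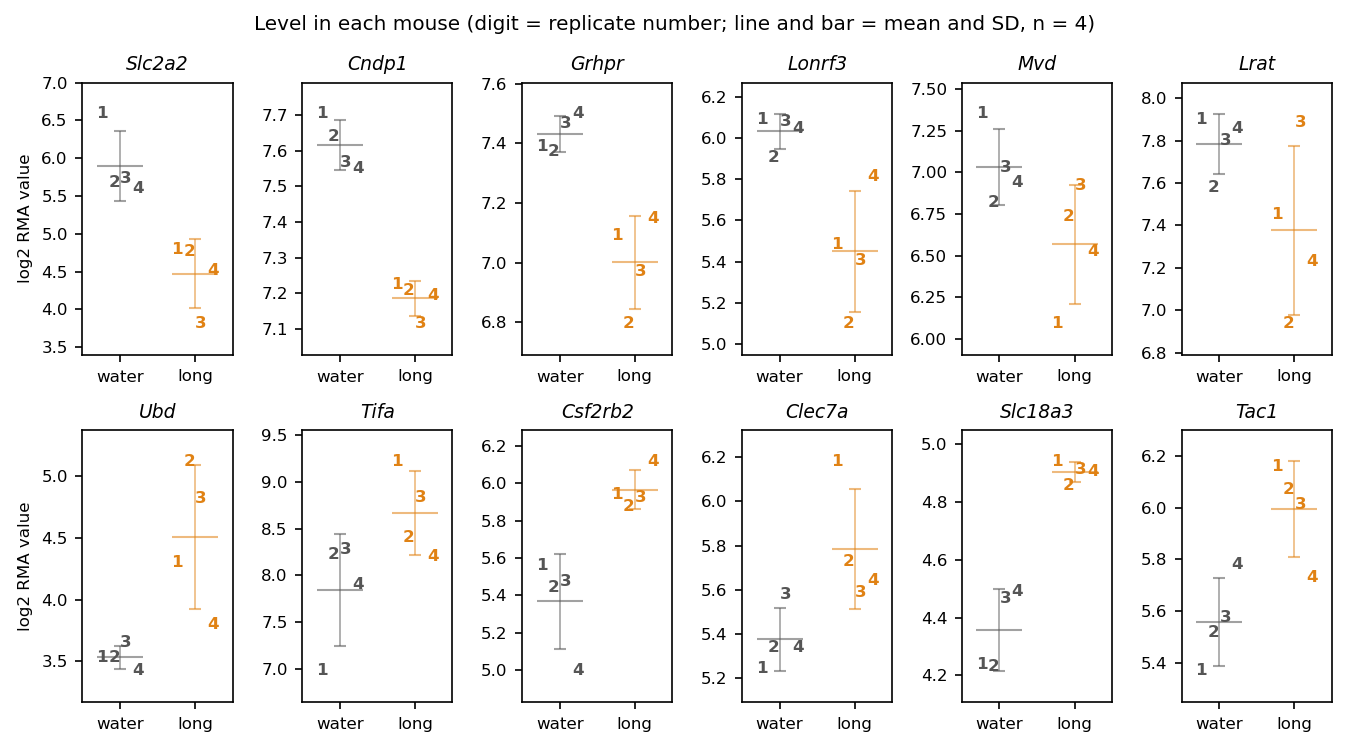
Level of 12 called genes in each mouse (vertical axis, log2 RMA value, with a scale of its own for each gene). Digits are replicate numbers, grey for water and orange for long-chain β2→1-fructan, and lines with bars are the mean and SD of 4 mice. The groups do not overlap for Slc2a2, Cndp1, Grhpr, Lonrf3, Ubd, Csf2rb2, Clec7a and Slc18a3, and they overlap for Mvd, Lrat, Tifa and Tac1.

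Cholesterol synthesis was lower as a group in small steps. The pathway runs from acetyl-CoA over mevalonate and squalene to cholesterol, and its genes are transcribed together when the transcription factor SREBP-2 is active. All 16 measured genes were below 0, with log2 changes from -0.46 to -0.02 and a median of -0.20. Of these, 1 fell and 8 were lower at p under 0.05, against 3.74% of all genes, but none was without overlap. Mvd, the mevalonate diphosphate decarboxylase gene, was at 7.35, 6.82, 7.03 and 6.94 on water and at 6.09, 6.73, 6.92 and 6.53 after treatment (-0.46 ± 0.16). The 2 groups overlapped, and the call ended without long-chain mouse 1 or 4 or water mouse 1, 3 or 4 (-0.31 to -0.50). Mvd was called in 7 of the 17 alternative settings, and its call also ended with the replicate block, in the fit of the 12 conventional arrays, with 1 prior variance and after cyclic loess (-0.43). Late enzymes of the pathway were not called. Hsd17b7 differed by -0.28 ± 0.10, Nsdhl by -0.23 ± 0.10 and Lss, the lanosterol synthase gene, by -0.38 ± 0.17. Without water mouse 1 Hsd17b7 stood at -0.17 and Nsdhl at -0.14, and without long-chain mouse 1 Hsd17b7 stood at -0.18 and Lss at -0.25. The mice differed more than the groups here. As a mean of the list the water mice were at 0.24, -0.13, -0.10 and -0.01 and the treated mice at -0.44, -0.34, 0.08 and -0.12, so that long-chain mouse 3 lay above 3 of the water mice and water mouse 1 above all others. The median of the 16 genes was -0.13 without water mouse 1 and -0.31 without long-chain mouse 3. Insig1, which encodes the protein that holds the SREBP complex in the endoplasmic reticulum, was not called (-0.33 ± 0.18, or -0.16 without water mouse 1 and -0.19 without long-chain mouse 1), nor were the sterol exporter genes Abcg5 (-0.23 ± 0.11) and Abcg8 (-0.25 ± 0.10). The last pair did not overlap.

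The 250 bases before the start of Mvd, Hsd17b7, Nsdhl and Lss, genes of the same pathway that all stood lower, are given with CCAAT boxes in capitals (RefSeq, GRCm38.p6). The windows are chr8:122443423-122443672 on the minus strand, chr1:169969206-169969455 on the minus strand, chrX:72918271-72918520 on the plus strand and chr10:76531355-76531604 on the plus strand, each written 5′ to 3′ along the gene.
Mvd: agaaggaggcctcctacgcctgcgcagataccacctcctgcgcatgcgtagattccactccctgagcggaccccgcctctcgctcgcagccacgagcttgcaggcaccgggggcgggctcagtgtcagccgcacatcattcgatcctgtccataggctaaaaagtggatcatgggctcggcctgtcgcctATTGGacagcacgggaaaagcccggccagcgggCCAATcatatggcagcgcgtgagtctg
Hsd17b7: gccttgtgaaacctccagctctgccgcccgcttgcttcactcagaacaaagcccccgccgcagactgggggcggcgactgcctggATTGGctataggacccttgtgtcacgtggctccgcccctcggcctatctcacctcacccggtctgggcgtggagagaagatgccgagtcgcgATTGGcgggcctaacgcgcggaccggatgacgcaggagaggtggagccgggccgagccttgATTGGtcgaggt
Nsdhl: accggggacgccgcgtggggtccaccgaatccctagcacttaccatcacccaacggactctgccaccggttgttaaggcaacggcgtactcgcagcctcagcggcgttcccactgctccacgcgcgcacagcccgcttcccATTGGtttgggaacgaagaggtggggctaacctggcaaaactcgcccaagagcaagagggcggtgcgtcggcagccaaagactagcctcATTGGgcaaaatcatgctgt
Lss: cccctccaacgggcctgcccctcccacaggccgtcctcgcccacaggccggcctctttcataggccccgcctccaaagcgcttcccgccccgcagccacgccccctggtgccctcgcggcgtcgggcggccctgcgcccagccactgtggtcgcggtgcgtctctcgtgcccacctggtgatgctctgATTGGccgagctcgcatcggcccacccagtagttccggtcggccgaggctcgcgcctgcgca
These stretches held 2, 3, 2 and 1 matches. With the 50 bases after the start included, a CCAAT box on either strand was present in 13 of 13 genes of cholesterol synthesis that had a window in the table, in 9 of 14 genes of sugar handling and in 41.9% of the 14749 tested genes with one. It was also present in 16 of 17 genes of crypt proliferation (94.1%), a list without a called gene, and in 80.0% of the unfolded protein response and 78.6% of the circadian clock, so that the share is not particular to cholesterol synthesis. A sterol element of the letters TCACNCCAC on either strand was present in 1 of the 13 and in 1.42% of all. Letters in a window do not show binding, and their presence is a description only.

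Genes of the interferon-γ response stood on the higher side, led by Ubd. Interferon-γ from lymphocytes induces guanylate-binding proteins, the immunoproteasome and antigen presentation. Of 26 measured genes of this response 25 were above 0 (median 0.17), 1 rose and 2 were without overlap. Over all genes 44.3% were above 0, 0.165% rose and 1.26% were without overlap in the higher direction. Ubd, which encodes the ubiquitin-like protein FAT10, was at 3.53, 3.53, 3.65 and 3.42 on water and at 4.30, 5.12, 4.82 and 3.80 after treatment (0.98 ± 0.24). Treated mice were all above the water mice and spread over a wider range, and the call held with each of the 8 mice left out in turn. Iigp1, an interferon-inducible GTPase gene, was the other gene without overlap. It was at 5.87, 5.69, 5.89 and 5.55 on water against 5.91, 6.28, 6.51 and 5.90 (0.40 ± 0.20), not called. Gbp8, a guanylate-binding protein gene, was at 6.72, 6.20, 6.13 and 6.18 against 6.43, 7.02, 7.43 and 6.24 (0.47 ± 0.22, or 0.25 without long-chain mouse 3), with overlap. In each of these genes long-chain mice 2 and 3 were the highest. The same held for the list as a whole, whose mean was 0.17, -0.04, -0.03 and -0.10 in the water mice and 0.04, 0.42, 0.48 and -0.04 in the treated mice. Without long-chain mouse 2 the median of the 26 genes was 0.11, without mouse 3 it was 0.09, and without mouse 1 or mouse 4 it was 0.26 and 0.27. A list of T cells and intraepithelial lymphocytes had means of 0.34, -0.10, -0.08 and -0.15 on water and -0.13, 0.21, 0.09 and -0.06 after treatment, and its part in these values was not tested. Ifng was faint at 2.97 to 3.27 on water and at 2.93 to 3.10 after treatment, and it did not differ beyond the spread between mice (-0.07 ± 0.11). Ifnl2, a type III interferon gene, differed by 0.37 ± 0.18 and was not called. Of 24 genes of the type I and III interferon response 12 were above and 12 below 0, none was called, and the 1 with p under 0.05, Oasl1, was lower (-0.34 ± 0.16, or -0.22 without long-chain mouse 1).

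Class II antigen presentation was mixed, with its abundant chains on the higher side. Of 11 measured genes 8 were above 0 (median 0.08) and 3 were higher at p under 0.05, against 1.93% of all genes. None of the 11 was called, and the 3 were under the fold threshold. H2-Eb1, a class II β chain gene, was at 9.73, 9.45, 9.60 and 9.42 on water and at 9.60, 9.92, 9.88 and 9.79 after treatment (0.25 ± 0.08). The α chain gene H2-Aa differed by 0.26 ± 0.11 and the invariant chain gene Cd74 by 0.26 ± 0.09. All 3 overlapped, with water mouse 1 inside the range of the treated mice. H2-Oa, a chain of the class II modulator DO, had the largest difference of the list and was on the lower side (-0.39 ± 0.20, not called). The list mean was 0.15, -0.05, -0.06 and -0.04 in the water mice and -0.07, 0.19, 0.17 and -0.02 in the treated mice. Long-chain mice 2 and 3 were again the highest, with water mouse 1 next. Long-chain mouse 4 lay among the water mice and long-chain mouse 1 just below them. The median was 0.03 without long-chain mouse 3 and 0.17 without long-chain mouse 4. The 250 bases before the start of H2-Eb1 (RefSeq, GRCm38.p6, plus strand, chr17:34305617-34305866) are shown because its family shares a CCAAT-containing Y box, with CCAAT matches in capitals.
H2-Eb1: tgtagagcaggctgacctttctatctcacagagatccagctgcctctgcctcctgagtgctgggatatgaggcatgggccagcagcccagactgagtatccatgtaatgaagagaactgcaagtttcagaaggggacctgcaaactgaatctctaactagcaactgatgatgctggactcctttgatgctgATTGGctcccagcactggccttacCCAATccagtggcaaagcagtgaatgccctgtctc
Its matches begin at positions -59 and -35. Over the 300-base windows, a CCAAT box was found for 6 of 8 class II genes and for 12 of 17 interferon-γ response genes. An interferon-stimulated response element on either strand was present in 8 of the 17, in 11 of 17 genes of the type I and III interferon response, which held no called gene, and in 3.91% of all tested genes.

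**Figure D3:**
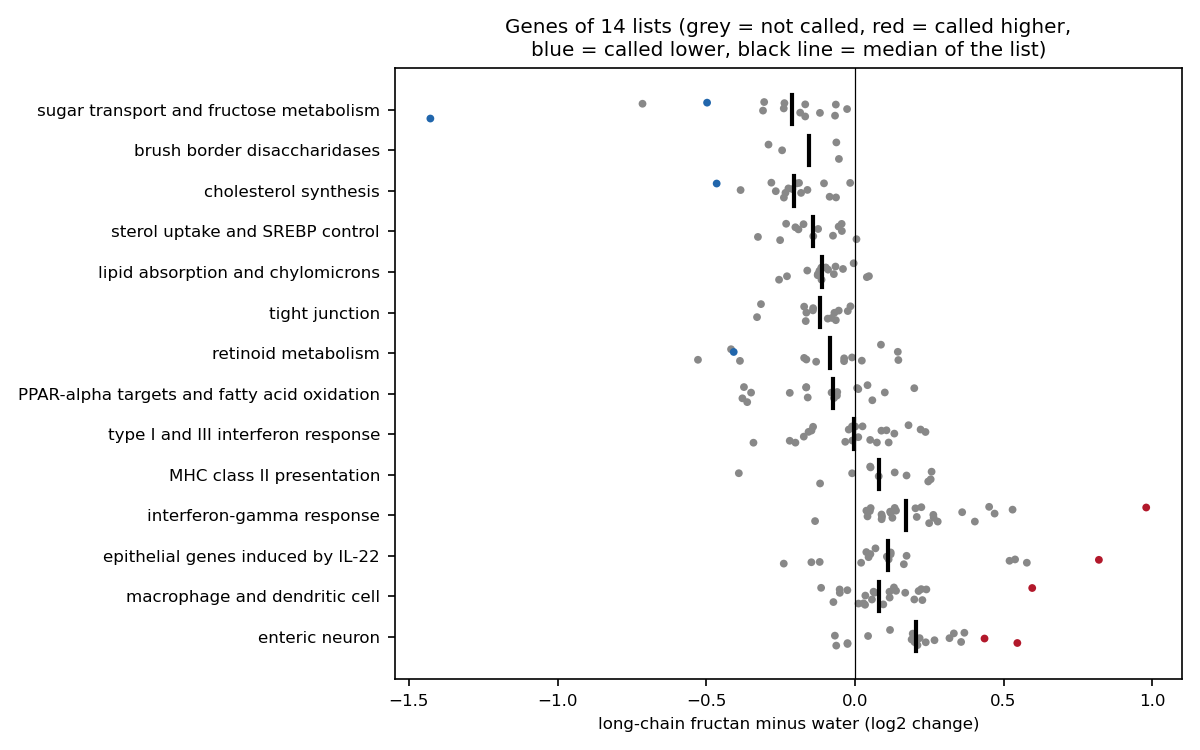
Log2 change (horizontal axis, long-chain β2→1-fructan minus water) of the genes of 14 lists, 1 point per gene, spread vertically within a list for legibility only. Black lines are list medians, from -0.21 for sugar handling to 0.21 for enteric neurons, and coloured points are the called genes.

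Epithelial defence genes induced by IL-22 were mixed. The cytokine gene Il22 itself and Saa1 had only probe sets shared with other genes and were not tested. Of 18 measured genes 15 were above 0 (median 0.11), and 1 rose. Tifa encodes an adaptor protein of NF-κB signalling. It was at 6.98, 8.22, 8.27 and 7.90 on water and at 9.22, 8.41, 8.83 and 8.20 after treatment (0.82 ± 0.24). The ranges overlapped, and the call ended without long-chain mouse 1 (0.64) or water mouse 1 (0.53). Fut2, which adds terminal fucose to mucosal glycans, was at 5.61, 6.45, 6.71 and 5.87 against 7.03, 6.71, 6.40 and 6.80 (0.58 ± 0.21). Saa3, a serum amyloid gene, differed by 0.54 ± 0.23. Both passed the fold threshold, but their limma p was not under 0.01, so that neither was called. The study, whose methods name remapped probe sets, counts Fut2 among the genes raised most by both fructans. S100a8, a calprotectin subunit gene of neutrophils, was the only member of the list without overlap, and it was lower (-0.24 ± 0.11, not called). Duox2, the epithelial oxidase gene (0.16 ± 0.20), and Retnlb, the goblet cell gene of RELMβ (-0.15 ± 0.30), lay within the spread between mice. As a list mean the water mice were at -0.26, 0.15, 0.28 and -0.17 and the treated mice at 0.24, 0.16, 0.13 and 0.13. The water mice therefore spread on both sides of the treated mice. Of 23 genes of mucin glycosylation 1 rose, B3gnt7, which extends glycans with N-acetylglucosamine. It was at 5.49, 5.87, 5.96 and 5.69 on water and at 6.34, 6.07, 6.43 and 6.09 after treatment, without overlap (0.48 ± 0.16). Its call ended without long-chain mouse 1 or 3 or water mouse 1 or 4 (0.39 to 0.46), and in the fit of the 12 conventional arrays.

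Among receptors of myeloid cells Csf2rb2 rose in every setting tried. It encodes a mouse-specific β chain of the IL-3 receptor and lies on chromosome 15 from 78282507 to 78305721. Its level was 5.56, 5.44, 5.48 and 4.99 on water and 5.94, 5.88, 5.92 and 6.12 after treatment, without overlap (0.60 ± 0.15). Clec7a, the gene of the fungal glucan receptor dectin-1, also rose. It was at 5.24, 5.34, 5.58 and 5.34 against 6.18, 5.73, 5.59 and 5.64 (0.41 ± 0.14). The groups did not overlap by a narrow margin, and the call ended without long-chain mouse 1 or 2 or water mouse 1, 2 or 4 (0.28 to 0.43). Tlr2, a receptor of bacterial lipoproteins, was without overlap and not called (0.34 ± 0.12). Of 25 pattern recognition receptor genes 1 rose, and 13 were above and 12 below 0. In the list of macrophages and dendritic cells 19 of 24 genes were above 0 (median 0.08) and 1 rose. Over all genes 1.93% were higher at p under 0.05, and here 4 were, Csf2rb2 among them. The other 3 were Cx3cr1 (0.22 ± 0.11, or 0.14 without water mouse 4), a receptor of resident macrophages, the lysozyme gene Lyz2 (0.17 ± 0.07) and the perforin-like gene Mpeg1 (0.20 ± 0.09). The summed level of 5 defining markers of these cells was 8.53 to 8.76 on water and 8.72 to 8.77 after treatment, and its part in the changes above was not tested. Chemokine genes moved to either side. Ccl8 differed by 0.51 ± 0.20 and Ccl20, which attracts CCR6-bearing lymphocytes, by -0.56 ± 0.22. Neither was called, and of 22 chemokines 12 were above 0.

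Transcripts of nerve cells stood higher. Of 20 measured enteric neuron genes 16 were above 0, 6 were higher at p under 0.05, 2 rose and none fell, with a median of 0.21. Over all genes 44.3% were above 0, 1.93% were higher at p under 0.05 and 0.165% rose. Slc18a3, the vesicular acetylcholine transporter of cholinergic neurons, was at 4.24, 4.23, 4.47 and 4.49 on water and at 4.94, 4.86, 4.91 and 4.90 after treatment (0.55 ± 0.14). The treated mice lay close together above all water mice. Tac1, the precursor of substance P, was at 5.37, 5.52, 5.57 and 5.78 against 6.16, 6.07, 6.01 and 5.73 (0.44 ± 0.13). It overlapped by 1 mouse, and the call ended without long-chain mouse 1 (0.38), long-chain mouse 2 (0.41) or water mouse 1 (0.37). Uchl1, a deubiquitinase gene of neurons, was higher without overlap but not called (0.37 ± 0.12), and Calb2, the calretinin gene, was not called (0.36 ± 0.14). Outside that list, 5 called genes were chosen for this paragraph after their values had been seen. All 5 were picked from the genes that rose, so that their shared direction says nothing about nerve cells. All were faint, like 23 of the 31 genes that rose. Nicotinic acetylcholine receptor genes Chrna4 (0.48 ± 0.16) and Chrna7 (0.38 ± 0.13) rose from faint levels. The call of Chrna4 ended without long-chain mouse 1 or 4 or water mouse 3 or 4 (0.35 to 0.47), and with the replicate block. That of Chrna7 ended without long-chain mouse 1 or 4 or water mouse 2 or 3 (0.30 to 0.35). It also ended after cyclic loess and in the fit of the 8 compared arrays. Sv2a, which encodes a synaptic vesicle protein, rose (0.45 ± 0.14), a call that ended without long-chain mouse 4 (0.38) or water mouse 2 (0.37). Rgs14, a regulator of G protein signalling, was at 4.26, 4.01, 3.83 and 4.14 on water against 4.29, 4.90, 4.72 and 4.54 (0.55 ± 0.13). Nes, the nestin gene of glia and progenitors, was at 4.10, 4.29, 4.33 and 4.15 against 4.29, 4.94, 4.84 and 4.78 (0.50 ± 0.12). Rgs14 did not overlap and Nes did, and both calls held with each of the 8 mice left out in turn.

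No gene of muscle or stroma lists was called, while 0.313% of all tested genes were. Of 14 smooth muscle genes 13 were above 0 (median 0.11), and of 12 fibroblast and matrix genes 11 were above 0 (median 0.09). The smooth muscle median was 0.06 without water mouse 2 or long-chain mouse 4, and the fibroblast median was 0.05 without water mouse 1. Col1a1, a collagen gene, differed by 0.26 ± 0.10 and the vimentin gene Vim by 0.24 ± 0.10, both without overlap. The summed level of 6 smooth muscle markers was 13.20 to 13.37 on water and 13.25 to 13.47 after treatment, and that of 5 enteric neuron markers 8.86 to 9.12 and 8.94 to 9.33. As a list mean, the neuron genes were at -0.09, -0.05, 0.07 and 0.06 in the water mice and at 0.19, 0.27, 0.04 and 0.30 in the treated mice, so that long-chain mouse 3 lay inside the range of the water mice. Adipocyte genes varied widely among the treated mice, with list means of 0.44, -0.62, -0.11 and -0.53 against -0.01 to 0.03 on water, and none of the 9 was called. The share of muscle wall in each piece of tissue was not measured, and its part in these changes was not tested.

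**Figure D4:**
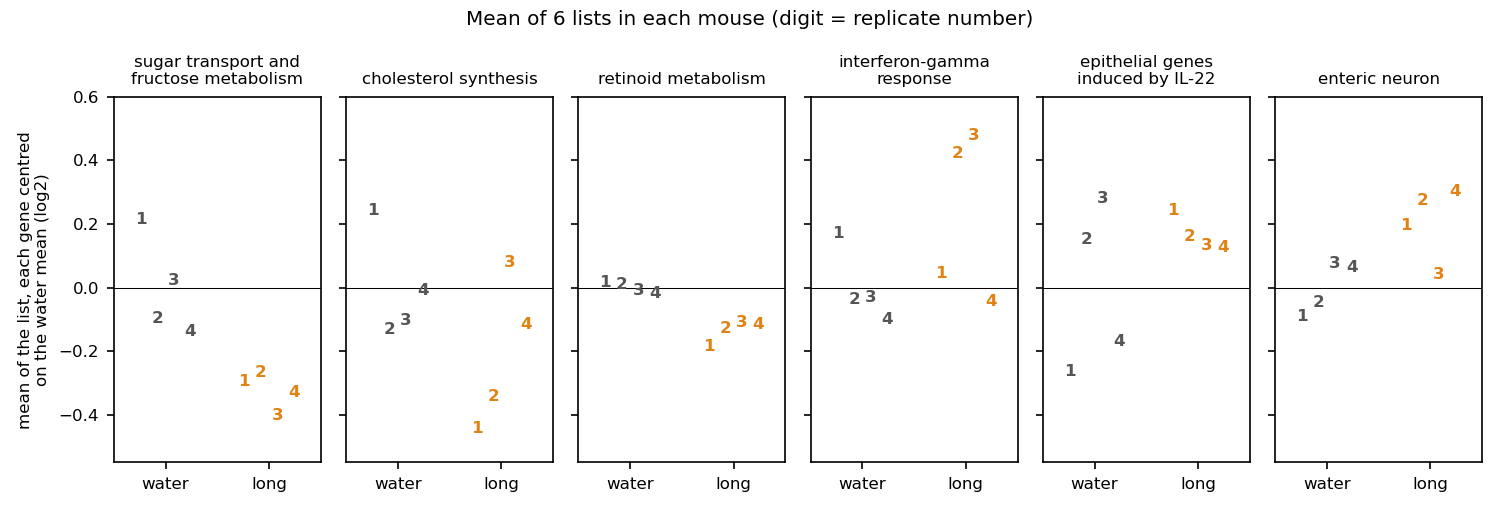
Mean of 6 lists in each mouse (vertical axis, log2 scale, each gene centred on its water mean, digits are replicate numbers). The groups do not overlap for sugar handling and retinoid metabolism, and for the interferon-γ response long-chain mice 2 and 3 stand at 0.42 and 0.48 while mice 1 and 4 lie at 0.04 and -0.04.

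Several cell types and programmes held no called gene. This was so for goblet cells (14 genes), Paneth cells (9), tuft cells (12), T cells and intraepithelial lymphocytes (22), B cells (14), plasma cells (9), bile acid transport (10), cytochrome P450 (23), crypt proliferation (20), the circadian clock (16) and the unfolded protein response (12). Their medians ranged from -0.11 to 0.08. With 0.313% of all tested genes called, lists this short often hold none, so that their lack of calls says little about these cells. In the list of stem cell and Wnt genes 1 of 12 rose. Myc, the proliferation-promoting transcription factor, was at 7.39, 7.71, 7.79 and 7.93 on water and at 8.11, 7.97, 8.02 and 8.27 after treatment (0.38 ± 0.12), without overlap, and its call ended without long-chain mouse 4 (0.33) or water mouse 1 (0.28). The Wnt target Axin2 was not called (0.20 ± 0.09).

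Some of the largest changes came from genes outside these groups and rested on few mice. Igkv6-20, an antibody light chain variable segment, had the largest fold change of all called genes. It was at 9.25, 10.13, 9.75 and 8.02 on water and at 9.53, 6.78, 7.97 and 6.49 after treatment (-1.60 ± 0.47), with wide overlap. Its call ended without long-chain mouse 2 (-1.29), long-chain mouse 4 (-1.19) or water mouse 2 (-1.32), and with array weights (-1.27). Tat, the tyrosine aminotransferase gene, was at 6.69, 7.98, 8.41 and 7.07 against 9.67, 8.07, 8.03 and 8.47 (1.02 ± 0.35). Its groups overlapped as well, and the call ended without long-chain mouse 1 (0.65), long-chain mouse 4 (1.05), water mouse 1 (0.74) or water mouse 4 (0.87). Tat was called in 10 of the 17 alternative settings. Its call also ended with 1 prior variance and in the fits of the 12 conventional and of the 8 compared arrays. Clec3b, the tetranectin gene, rose without overlap (0.50 ± 0.15), a call that ended without long-chain mouse 1 (0.45) or water mouse 1 (0.45). The brightest called gene was Snord104, a small nucleolar RNA that guides methylation of ribosomal RNA. It was at 9.48, 9.30, 9.29 and 9.26 on water and at 8.68 to 9.11 after treatment, without overlap (-0.39 ± 0.10), and its call ended without long-chain mouse 3 (-0.30) or water mouse 1 (-0.34) and after cyclic loess (-0.35). Many of the faint called genes have no known role in the gut. Of 990 olfactory receptor genes, with a median level of 2.46, 1 rose and 4 fell. Among all 2934 genes with a mean level under 3, 2 rose and 8 fell, and over all genes 0.165% rose and 0.149% fell. These few calls are not read as a result about olfactory receptors. Hoxc10 (0.48 ± 0.14), Zfp600 (-0.54 ± 0.14), Gm6588 (-0.47 ± 0.11) and Gm2511 (-0.46 ± 0.12) were called with each of the 8 mice left out in turn, at mean levels of 2.12 to 3.49, near the low end of the array.

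Whether the same dose changed these genes without bacteria was read from the germ-free mice. In them long-chain β2→1-fructan against water called 161 genes (0.855%), and the difference in change between conventional and germ-free mice called 100 (0.531%), with 0 at an adjusted p under 0.05 in limma for either. This difference contains the conventional change by which the 59 genes were called, so that it is no separate evidence for them. Of the 59 called in conventional mice, 39 changed in the same direction in germ-free mice by sign. These were 21 of the 31 that rose and 18 of the 28 that fell. The count was not made over all genes, so that it cannot be read as agreement. Of the 59, 4 were called in germ-free mice too, and 14 were called for the difference. Csf2rb2 rose in both (0.60 in conventional and 0.49 in germ-free mice), and Slc47a1 (-0.51 and -0.52) and Fbp1 (-0.50 and -0.46) fell in both. Ttc39c fell in both as well (-0.41 and -0.67), but in conventional mice it was called in only 5 of the 17 alternative settings. The call ended under cyclic loess (-0.38) and the replicate block, among others, and without long-chain mouse 1, 2 or 4 or water mouse 1, 2 or 3 (-0.33 to -0.42). For Grhpr the germ-free change was 0.15, and the difference of -0.58 had the smallest p among the called genes (adjusted p = 1.00 in limma). Pcdh19, a protocadherin gene, had changes of -0.62 and 0.21, and its call in conventional mice ended without long-chain mouse 2 (-0.49) or water mouse 1 (-0.52). The call for the difference was also met by Nes (0.50 and -0.12), Clec7a (0.41 and -0.21), Ubd (0.98 and -0.03) and Snord104 (-0.39 and 0.02). For Slc2a2 the changes were -1.43 and -0.35, a difference of -1.08 that was not called.

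The gene groups stood to one another in different ways in the 2 colonization states. For sugar handling all 14 genes were below 0 in germ-free mice too, with a median of -0.29 beside -0.21. Enteric neuron genes had medians of 0.21 in conventional and 0.18 in germ-free mice. For the interferon-γ response the medians were 0.17 and -0.14, with 22 of 26 genes below 0 in germ-free mice, and 6 of the 26 had a p under 0.05 for the difference, against 3.74% of all genes. For class II presentation they were 0.08 and -0.08, with 2 of 11 at that p. Cholesterol synthesis had medians of -0.20 and -0.09, and none of its 16 genes had a p under 0.05 for the difference. The difference contains the conventional change of the same genes, and the lists were chosen with earlier results of these data known. Genes of a list also moved together in single mice, so that these counts are no separate evidence. The absence of bacteria, the irradiated and partly degraded batch given to germ-free mice and the different origin of the mice cannot be told apart in these differences.

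**Figure D5:**
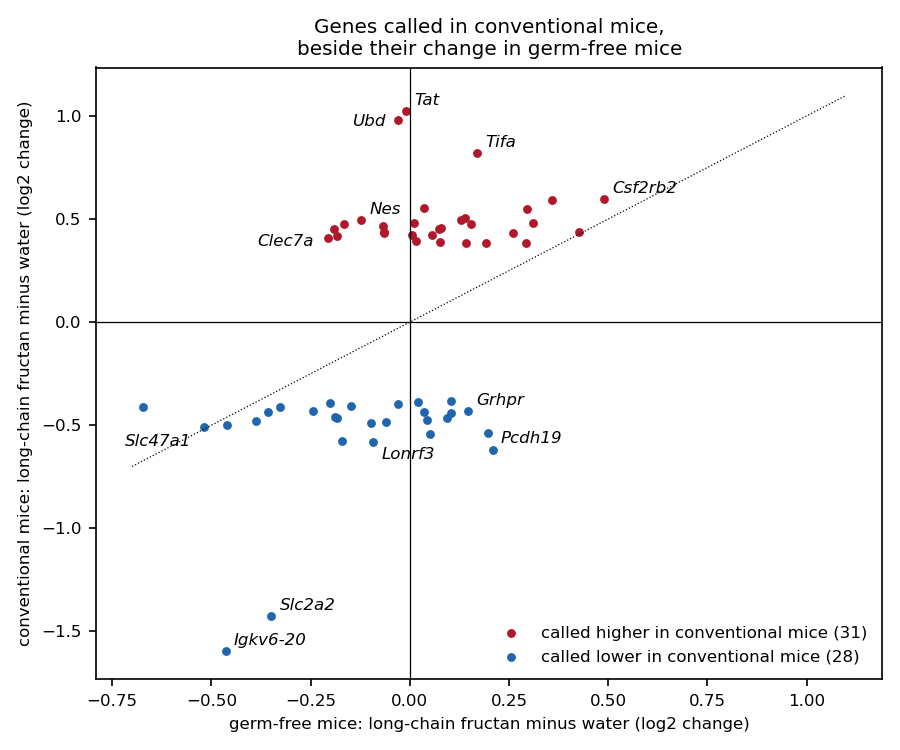
Log2 change of the 59 called genes in conventional mice (vertical axis) beside their change in germ-free mice (horizontal axis), both long-chain β2→1-fructan minus water. The dotted line marks equal changes. Csf2rb2 and Slc47a1 lie near it, whereas Ubd and Tat lie at a germ-free change near 0.

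Short-chain β2→1-fructan was given to other conventional mice, and its comparison uses the same 4 water mice, so that the changes are shown side by side without an overlap count. The fructans were compared directly for the called genes. Long-chain against short-chain β2→1-fructan called 40 genes (0.213%), 0 at an adjusted p under 0.05 in limma, and 14 of the 59 had an unadjusted p under 0.05 (3.63% of all genes). This contrast contains the same long-chain mice. With the long-chain value first and the short-chain value next, Tifa changed by 0.82 and 0.10, Lonrf3 by -0.58 and -0.20, Rgs14 by 0.55 and 0.17, Eepd1 by -0.44 and -0.14, Csf2rb2 by 0.60 and 0.24 and Ubd by 0.98 and 0.47, each with a p under 0.05 between the fructans. Such a p was not reached by Slc2a2 (-1.43 and -0.97), Cndp1 (-0.43 and -0.46), Grhpr (-0.43 and -0.31), Slc18a3 (0.55 and 0.37), Clec7a (0.41 and 0.24) or Myc (0.38 and 0.35), which does not show that their levels were alike. For cholesterol synthesis the medians in this order were -0.20 and -0.02, and 3 of 16 genes had a p under 0.05 between them. For the interferon-γ response the medians were 0.17 and 0.13, and 1 of 26 did so. Outside the called genes, Retnlb differed from water by -0.15 and 1.13 and Ifnl2 by 0.37 and -0.38. Both were called between the fructans.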

How the data were processed

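Ileal RNA of 24 mice was hybridised to Affymetrix Mouse Gene 1.1 ST arrays, 1 per mouse. Values are on the log2 scale, deposited by the authors after robust multiarray averaging with quantile normalization across arrays. The methods name a remapped probe set definition, whereas the deposited values carry the manufacturer's probe set numbers. Genes with a probe set of a single symbol were kept, by the brightest set where there were several, which left 18820. Group means of 6 groups over 24 arrays were fitted with limma 3.58.1 in R 4.3.3 (eBayes with trend). The fit was tried beforehand on simulated data, whose fold changes were all larger than the median of 1.38 among the called genes. That trial does not show how well changes of this size are found. Calls required p under 0.01 before adjustment and a fold change over 1.3. The number of arrays limits the precision.

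The members and the 47 gene lists were chosen with earlier results of these data known. Named genes were the 20 highest and 20 lowest called genes, called members and up to 4 further members of each list with the smallest p, 7 readouts of the study's question (Fut2, Retnlb, Duox2, Saa1, Il22, Ifng and Ifnl2), and up to 10 genes each with the smallest p for the change and, if called, for the difference from germ-free mice. Saa1 and Il22 had only probe sets shared with other genes and were not tested. Not all of the others are described. Slc5a1, Slc2a5, Ms4a10, Chrna7, Snord104 and Ttc39c were added outside this rule after their values had been seen. A list is described by its counts and median, without a test. Of 772 listed genes, 691 were measured. Alternatives were another prior variance, intensity-based moderation, the 12 conventional or 8 compared arrays, cyclic loess, averaged probe sets, array weights, genes under a mean of 5 left out, a replicate block, and each mouse left out in turn. Promoter windows and gene positions came from RefSeq tables of GRCm38.p6.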

Additional observations from a re-analysis of the deposited data

Results flagged for a closer look

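In 164 groups of 4 mice, from 82 genes of the text, 9 values stood far from the other 3 of their group. Chance alone gives such a value in about 1 in 20 groups. Of the 9 values, 7 were in water mouse 1, all above the other water mice. They were Slc2a2 (6.59), Sis (11.8), Slc5a1 (10.98), Hsd17b7 (9.25), Gbp8 (6.72), H2-Aa (10.9) and Hoxc10 (3.51). The others were Gm2511 in water mouse 4 (2.86), below the other water mice, and Sv2a in long-chain mouse 4 (4.65), above the other treated mice. Slc2a2, Gm2511 and Hoxc10 stayed called without that mouse, and the call of Sv2a ended.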

How the results depend on the processing

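The 59 calls were recounted under 9 alternatives and without each mouse. A call missing under an alternative means only that a value crossed a threshold, and the cause was not tested. Leaving out genes under a mean level of 5 tests fewer genes, and it left 19 called genes, 8 higher and 11 lower, with 665 at p under 0.05 and 26 called for the difference between conventional and germ-free mice. Other alternatives gave 53 to 76 called genes. Without single mice there were 64 to 119 called genes, 34 to 71 higher and 30 to 51 lower. The number at an adjusted p under 0.05 was 0 in limma throughout, and at an unadjusted p under 0.05 it was 865 to 1292 without single mice. Replicate numbers did not pair the mice, since the deviations of same-numbered mice correlated across genes with r of -0.13 to 0.07. With the replicate block 63 genes were called, 29 higher and 34 lower, and 95 for the difference.

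Without faint genes the list medians were -0.028 for glia, -0.050 for chemokines and -0.16 for retinoid metabolism. Without single mice they ranged from -0.21 to -0.11 for sterol uptake, from -0.18 to -0.055 for plasma cells, from -0.050 to 0.055 for chemokines, from -0.00084 to 0.076 for follicle and M cells and from 0.0062 to 0.14 for pancreas. Small medians were not stable. Without at least 1 of the mice, 17 of 46 list medians changed sign and 24 more moved by over 1.5 times, although most moves were within the spread between mice. The T cell median of 0.02 was 0.14 without water mouse 1 and -0.03 without water mouse 2, that of bile acid transport went from -0.02 to 0.04 without water mouse 4, that of amino acid transporters from -0.11 to -0.04 without water mouse 1 and that of PPAR-α targets from -0.07 to -0.13 without long-chain mouse 2. The 5 medians within 1.5 times were those of sugar handling, disaccharidases, lipid absorption, retinoid metabolism and enteric neurons. Retnlb (-0.50 to 0.21) and Slc5a1 (-0.11 to 0.020) changed sign, Retnlb without water mouse 3 and Slc5a1 without water mouse 1. Of the comparisons of single genes, 1539 kept direction and call, 218 lost the call and 34 gained it. With 4 mice in each group, small changes of faint genes could not be separated from the spread between mice.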
